A study of Mus musculus with 8 samples.

Results

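The regions described here are sites in the E12.5 mouse brain where the stretch of H3K4me3 was shorter in both Lats1/2 knockout libraries than in both control libraries. They were chosen from peak lists of 2 WT and 2 dKO libraries, merged into 19712 union regions. A region was a member if each of the 4 libraries had exactly 1 peak in it, if its mean WT peak width was from 500 to under 3000 bp, and if the larger dKO width was under 0.8 times the smaller WT width. Of the union regions, 10769 met the conditions on peak number and WT width and are called eligible below, and 467 of these (4.34%) met the width rule. The widths chose the members, so the width differences are given as a description and carry no test.

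H3K4me3 was measured by chromatin immunoprecipitation (antibody Millipore 07-473) and sequencing in brains of E12.5 embryos on a mixed strain background. The WT libraries came from controls without Cre. The dKO libraries carried Lats1/2;Nestin-Cre, in which Cre under the Nestin promoter, active in neural progenitors, deletes Lats1 and Lats2; cells in which Nestin-Cre is not active are part of the dissected tissue too. Only dKO embryos carried Cre, so Cre and the loss of Lats1 and Lats2 cannot be told apart. No label names the animal behind a library, so that spreads between libraries may be partly technical, and a mark in fewer cells cannot be told apart from less mark per cell.

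Trimethylation of lysine 4 on histone H3 marks the nucleosomes on either side of active and poised transcription start sites. It is deposited by the SET1/MLL family of methyltransferases and removed by KDM5 demethylases, and the length of the marked stretch differs widely between promoters. LATS1 and LATS2 are the kinases at the end of the Hippo cascade. They phosphorylate the coactivators YAP and TAZ, which are then kept out of the nucleus, and without them YAP and TAZ act with TEAD factors at enhancers and promoters. The series title places the libraries in the question of how this pathway limits transcription and the number of neural progenitors.

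The 4 lists had from 17367 peaks (dKO replicate 2) to 19486 peaks (WT replicate 1), and their read depth is unknown. Each peak has a score whose scale is not named, so scores are given mainly as percentiles within their own list. Over the eligible regions the median score was 479 and 456 in WT and 404 and 279 in dKO, and the median width was 1113 and 1164 bp for WT against 1082 and 998 bp for dKO. The dKO libraries, dKO replicate 2 most of all, thus had lower scores and shorter peaks at eligible regions as a whole; the part of this in the results below was not tested, apart from the scaled counts. Positions are on mm9, counted from 1. No annotation or sequence of mm9 was used here, so regions are named by position and no gene was assigned to them.

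The members had WT peaks of about 870 bp and dKO peaks of about 500 bp. Their median width was 865 bp in WT replicate 1 (range 390 to 2826) and 868 bp in WT replicate 2 (374 to 2820). It was 526 bp in dKO replicate 1 (218 to 1980) and 469 bp in dKO replicate 2 (210 to 2076). Summed over the members, the mark covered 450411 bp (WT replicate 1), 455172 bp (WT replicate 2), 289506 bp (dKO replicate 1) and 264357 bp (dKO replicate 2). Per region, the mean dKO width was a median 61.9% of the mean WT width, a log2 ratio of -0.69, with quartiles at 53.1% and 69.1%. Over all eligible regions the median was 92.6% (log2 ratio -0.11). The spread between replicates is not independent of the rule, which sets the smaller WT against the larger dKO width. The median absolute log2 ratio between the members' WT widths was 0.13, the same as over all eligible regions (0.13). Between their dKO widths it was 0.20, above the 0.14 over all eligible regions. WT replicate 2 was the narrower WT library in 214 members (45.8%, against 37.6% of all eligible regions) and dKO replicate 2 the narrower dKO library in 310 (66.4%, against 71.6%).

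**Figure D1:**
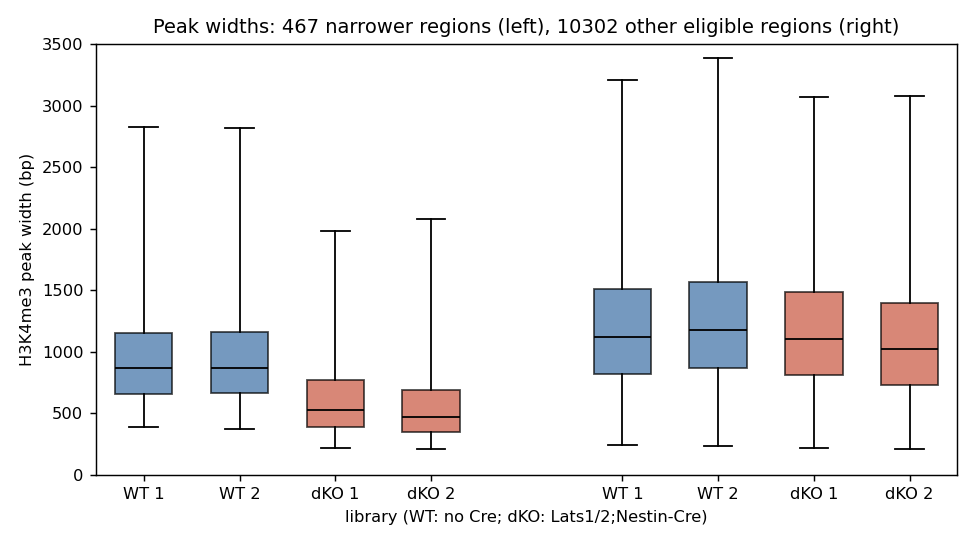
Width of the H3K4me3 peak (bp) in each library for the 467 members and the 10302 other eligible regions; lines are medians, boxes quartiles and whiskers the lowest and highest region. The members' dKO boxes centre on 526 and 469 bp against 865 and 868 bp in WT, while those of the other regions centre on 1102.5 and 1024 bp against 1122 and 1179 bp.

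Most members stood not far below the limit. The ratio of the larger dKO to the smaller WT width had a median of 0.734, and it was under 0.7 in 167 members, under 0.6 in 70 and under 0.5 in 28. Between 0.79 and 0.8 lay 46 members, and 44 eligible regions lay between 0.8 and 0.81. The member nearest the limit, on chromosome 19 from 17030149 to 17031107, had WT widths of 914 and 945 bp and dKO widths of 731 and 711 bp (ratio 0.7998). The next were the chromosome 2 region from 74600783 to 74601549 (609 and 767 bp, then 487 and 381 bp) and the chromosome 9 region from 53513321 to 53514863 (1404 and 1342 bp, then 1073 and 870 bp). Just outside, on chromosome 9 from 57787879 to 57789281, the WT widths of 1392 and 1390 bp stood against dKO widths of 1112 and 1019 bp, a ratio of exactly 0.8. The chromosome 13 region from 23663275 to 23664457 and another of chromosome 9, from 22279870 to 22281121, followed, with ratios of 0.8003 and 0.8011.

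The counts depended on how the libraries were paired. With the rule applied the other way round, to regions in which both WT widths were under 0.8 times both dKO widths, 12 of 10099 regions (0.119%) were found; in each pairing the width range was taken on the wider pair. Of the pairings that mix genotypes, WT replicate 1 with dKO replicate 2 was narrower than WT replicate 2 with dKO replicate 1 in 215 regions (2.01%), and the reverse held in 11 (0.107%). WT replicate 2 with dKO replicate 2 was narrower than the replicates 1 in 81 regions (0.769%), and the reverse held in 32 (0.309%). The genotype pairing gave the largest of these 6 counts, and the next one also had dKO replicate 2 on its narrow side. With widths scaled to a common library median, the genotype count was 241 of 10627 regions (2.27%), all of them among the 467 members. The mixed pairing with 215 regions then had 133 (1.26%). The remaining 4 pairings, in the order given above, had 49 (0.479%), 35 (0.339%), 85 (0.809%) and 56 (0.54%).

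**Figure D2:**
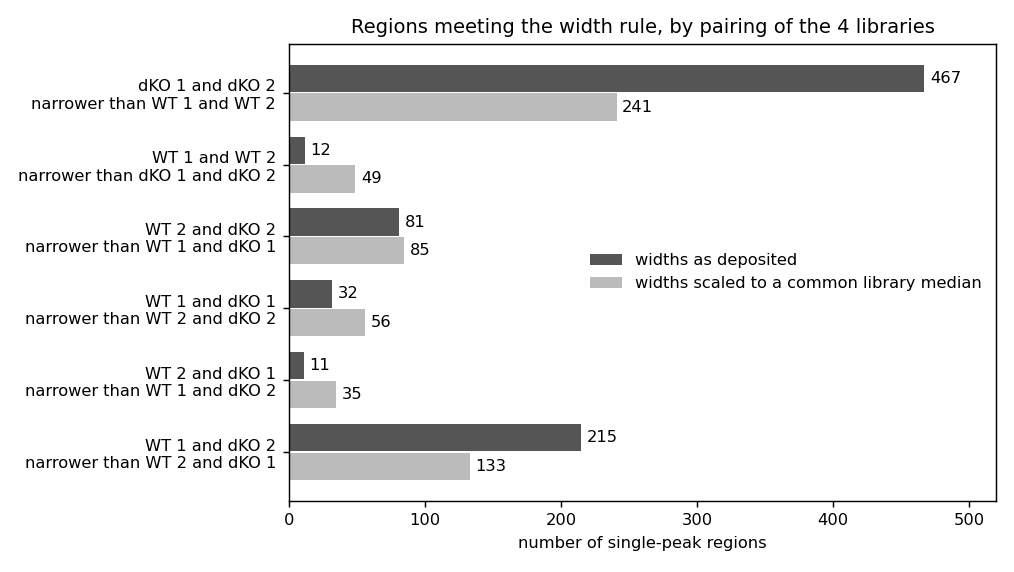
Number of single-peak regions in which the larger width of the pair named first was under 0.8 times the smaller width of the pair named second, for all 6 ways of setting 2 libraries against 2; dark bars use widths as deposited, light bars widths scaled to a common library median. The top pair of bars is the genotype comparison, at 467 and 241, and the bottom pair, at 215 and 133, has dKO replicate 2 and WT replicate 1 as the narrow pair.

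Each dKO library taken alone against the smaller WT width passed the limit in 772 eligible regions for dKO replicate 1 (7.17%) and 1887 for dKO replicate 2 (17.5%), and both did in the 467 members. With 1 library left out and the rule asked of the remaining 3, the count was 1453 without WT replicate 1, 971 without WT replicate 2, 2039 without dKO replicate 1 and 893 without dKO replicate 2. Regions wider in both dKO libraries by the mirrored limit, with the larger WT width under 0.8 times the smaller dKO width, numbered 6 of the 10769 eligible regions (0.0557%). Their WT widths had medians of 596.5 and 544 bp and their dKO widths of 1072.5 and 893 bp. In the limma fit of log2 widths over the 14943 union regions that all lists shared, 0 regions were called narrower in dKO (adjusted p under 0.05), against 725 (4.85%) at an unadjusted p under 0.05. In the other direction 1 was called wider, and 422 were wider at an unadjusted p under 0.05. Without centring on library medians, 0 were called in either direction, and 1503 were narrower and 45 wider at an unadjusted p under 0.05. Without dKO replicate 1 the fit called 49 narrower; dKO replicate 2 then stood alone and was assumed to vary like the WT libraries. The members are therefore regions set apart by the rule and not regions that passed a test.

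The narrowing in 1 pair of libraries was next looked at in the libraries that had not been used to choose. Regions were chosen as single-peak regions with 1 dKO width under 0.8 times 1 WT width, and their widths were then read in the remaining WT and dKO library. Chosen with WT and dKO replicates 1 (1236 of 10587 regions), they had dKO replicate 2 widths at a median 78.6% of WT replicate 2, against 89.0% in the regions not chosen. Of the chosen regions, 53.1% were under the 0.8 limit in the second pair too, against 29.3% of all regions open to that choice. Chosen with WT replicate 2 and dKO replicate 1, the medians in the remaining pair were 84.0% and 92.5%, and the shares under the limit 41.7% and 22.9%. Chosen with WT replicate 1 and dKO replicate 2, they were 91.1% and 95.2%, with 27.6% and 15% under the limit. Chosen with both replicates 2, they were 95.6% and 98.8%, with 19.2% and 10.7% under it. By their medians, the chosen regions were thus narrower than the others in the unused libraries in all 4 ways, with the smallest difference where both replicates 2 did the choosing. Within quartiles of the choosing WT library's score percentile the sign was the same in 16 of 16 combinations, with differences in the median log2 ratio from -0.21 to -0.015. The share of regions with any lower dKO width in the unused pair differed less. In the order above it was 86.0%, 79.9%, 71.4% and 60.7% of the chosen regions, against 83.9%, 75.3%, 68.6% and 56.7% of all regions open to the choice. The requirement of 1 peak per library used all 4 lists, regions share libraries and are no replicates, and so no test was run.

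The members had weaker peaks than most eligible regions. Their median score percentile was 35.1 and 37.1 in the WT lists, against 63.2 and 63.1 for all eligible regions, and 28.9 and 23.6 in the dKO lists, against 60.3 and 58.6. Both dKO percentiles were below both WT percentiles in 242 members, and above in 11; over all eligible regions the shares were 30.3% and 9.66%, and 51.8% and 2.36% of the members. Of the eligible regions in the lowest quartile of mean WT score percentile, 317 of 2693 (11.8%) were members. The share was 3.01% in the second quartile, 1.41% in the third and 1.15% in the highest, which held 31 members. The mixed pairing with 215 regions had the same order, at 5.17%, 1.46%, 0.861% and 0.562%, so that a higher share among low scores was not particular to genotype. Among regions of at least 1000 bp in WT, 67 of 541 (12.4%) were members in the lowest quartile and 29 of 2421 in the highest. Under 1000 bp it was 250 of 2152 (11.6%) and 2 of 271.

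**Figure D3:**
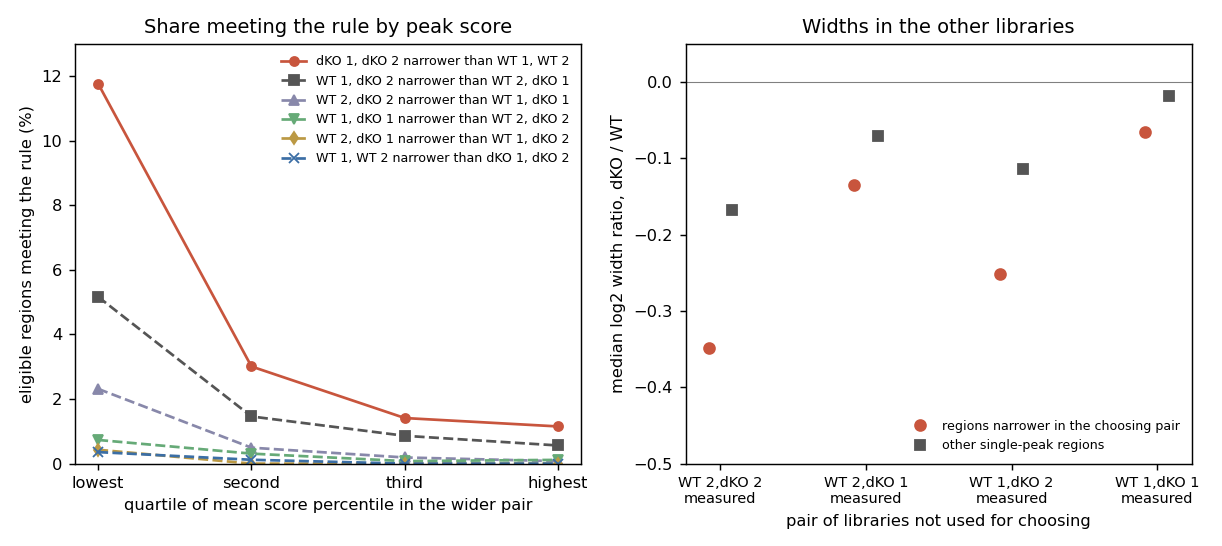
Left, percentage of eligible regions that met the width rule by quartile of the wider pair's mean score percentile, for the 6 pairings of the libraries; the genotype line runs from 11.8% in the lowest to 1.15% in the highest quartile. Right, median log2 ratio of dKO to WT width in the 2 libraries not used for choosing, for chosen regions (circles) and the others (squares); circles lie below squares in each of the 4 ways.

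By WT width alone, the share of members was 8.96% of regions with a mean WT width from 500 to under 750 bp (180 members), 5.16% from 750 to under 1000 bp, 3.26% from 1000 to under 1500 bp, 1.99% from 1500 to under 2000 bp and 1.47% from 2000 to under 3000 bp (13 members). Within score quartiles this order was not seen: from the lowest to the third quartile, the shares at 1000 bp or more against under 1000 bp were 12.4% and 11.6%, 3.23% and 2.73%, and 1.45% and 1.27%, and the highest quartile had the counts given above. The rule sets a least loss that grows with the smaller WT width, so a rise of base pairs lost with width is built into the choice. The median number lost, taken as the smaller WT minus the larger dKO width, was 159 bp in the first class and 499 bp in the last. Over all members it was 238 bp, with quartiles at 170.5 and 334.5 bp. At least 200 bp were lost in 301 members and at least 500 bp in 31.

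In most members the stretch lost in common lay mainly at 1 end, as it did in most other regions with such a loss. For each region the stretch lying in both WT peaks and outside both dKO peaks was measured at its start and at its end, in the order of the coordinates. In 325 of the 467 members (69.6%) at least 80% of this loss lay on 1 side, on the start side in 158 and on the end side in 167. This share is of the common stretch only, which can be a small part of the width lost. The chromosome 11 region from 44432571 counted as 1-sided on 3 and 113 bp, while its smaller WT width exceeded its larger dKO width by 849 bp. With 1 library left out the share was 57.8% to 64.2%. At least 50 bp were lost on each side in 103 members (22.1%), against 99 of the 8152 eligible regions outside the rule with a lower dKO mean (1.21%). The rule asks the members for a larger loss, so a difference in this direction is built into the choice. In 7 members no stretch was lost in common. Of those 8152 regions, 5156 had a common loss. It lay on 1 side in 89.2% of these, against 70.7% of the 460 members with one. The common loss was small outside the rule. Over the 10302 other eligible regions its upper quartile was 10 bp (start) and 11 bp (end), against 166 and 176.5 bp in members. The shares thus compare unlike losses and cannot tell whether a loss on 1 side was particular to the members. Among the members, the common loss lay on 1 side in 73.1% of those that lost at least 200 bp and in 63.3% of those that lost less.

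**Figure D4:**
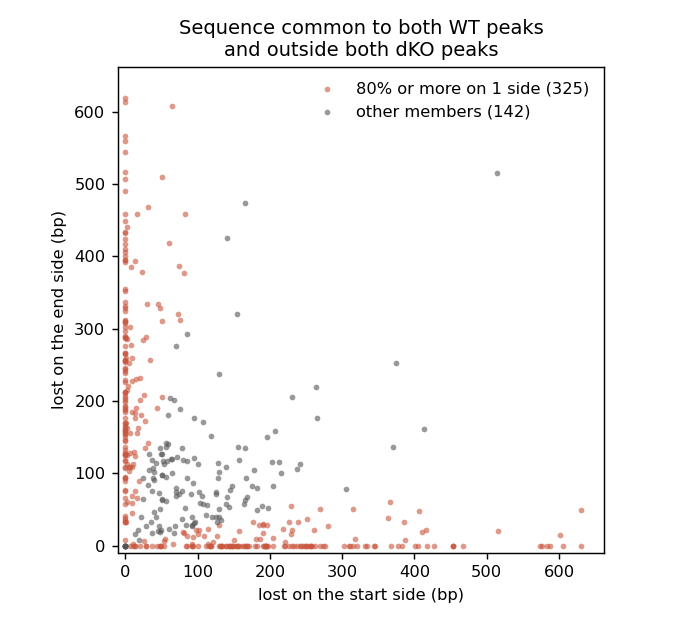
Base pairs common to both WT peaks and outside both dKO peaks, on the start side (x axis, bp) and on the end side (y axis, bp), 1 point per member. The 325 members with at least 80% on 1 side lie along the axes, 158 by the start and 167 by the end, and most others between them.

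The rule used the width, which both edges set, but did not ask on which side it was lost. That side can be compared in pairs that share no library. The side with the greater loss from WT to dKO replicate 1 was also the side with the greater loss from WT to dKO replicate 2 in 341 of 464 members (73.5%). In eligible regions that were no members it was so in 5309 of 10247 (51.8%). Where those other regions were at least 100 bp narrower in each of the 2 pairs, so that a side could be told, the share was 65.3% of 1680. With the numbers crossed, so that each WT library met the dKO library of the other number, it was 337 of 467 members (72.2%), and 63.7% of the 1978 others of that size. These others were not matched to the members by the width lost, so whether the sides agreed more often at equal loss was not tested. The edges themselves differed by a median of 62 bp (start) and 57 bp (end) between the WT replicates at members, by 57 and 61 bp between the dKO replicates, by 139 and 141 bp between WT and dKO replicate 1, and by 163 and 166 bp between WT and dKO replicate 2. At the other eligible regions the medians were 56 and 56 bp between the WT replicates and 56 and 58 bp between the dKO replicates. They were 51 and 51 bp there between WT and dKO replicate 1, and 71 and 74 bp between WT and dKO replicate 2. Larger differences between WT and dKO at the members follow from the rule.

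The 10 members with the smallest width ratio had dKO peaks of 217 to 503 bp and WT peaks of 847 to 1433 bp. On chromosome 12 from 15818465 to 15819442 the WT peaks were 932 and 921 bp wide and the dKO peaks 276 and 287 bp, the smallest ratio of all (0.312). WT averaged 926.5 ± 7.78 bp and dKO 281.5 ± 7.78 bp (SD, n = 2 each). The 577 bp at the start of the region lay in both WT peaks but in no dKO peak, and the end was kept. The same side was lost on chromosome 15 from 79713352 to 79714279, where the WT widths of 888 and 847 bp stood against 278 and 262 bp in dKO. It was lost too in the chromosome 7 region from 105342143 to 105343212 (WT widths 938 and 1038 bp, dKO widths 322 and 217 bp) and in the chromosome 19 region from 5488546 to 5489581 (978 and 944 bp, then 267 and 328 bp). In these 4 regions the dKO peaks of both libraries overlay the last part of the WT peaks. Their mean score percentiles, in this order, were 18.2, 19.7, 28.3 and 32.3 in WT and 7.09, 23.1, 14.1 and 11.7 in dKO. The lowest single values were 1.06 on chromosome 12 (dKO replicate 1) and 4.93 on chromosome 15 (WT replicate 2). On chromosome 7 from 3391458 to 3392480 it was the other end: the WT widths were 897 and 1023 bp, the dKO widths 313 and 266 bp, and 614 bp at the end were lost.

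The remaining 5 of the 10 did not all keep an edge. On chromosome 5 from 137994317 to 137995435 the dKO peaks of 382 and 332 bp lay in the middle of the WT peaks of 1061 and 1111 bp, with 374 bp lost at the start and 253 bp at the end. The chromosome 2 region from 181498081 to 181499253 (WT widths 1053 and 1173 bp, dKO widths 325 and 407 bp) and the chromosome 17 region from 24825995 to 24827448 (1211 and 1256 bp, then 503 and 456 bp) were also shortened from both ends. The chromosome 17 region stood out among the 10 by its score, at percentile 58.4 in the WT lists and 62.8 in the dKO lists. The chromosome 12 region from 50479178 to 50480455 had WT peaks of 1278 and 1053 bp and dKO peaks of 395 and 264 bp. In common it lost 416 bp at its start and 21 bp at its end. Its dKO peaks overlapped only in part, from 50479909 to 50480303 in replicate 1 and from 50479688 to 50479951 in replicate 2.

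**Figure D5:**
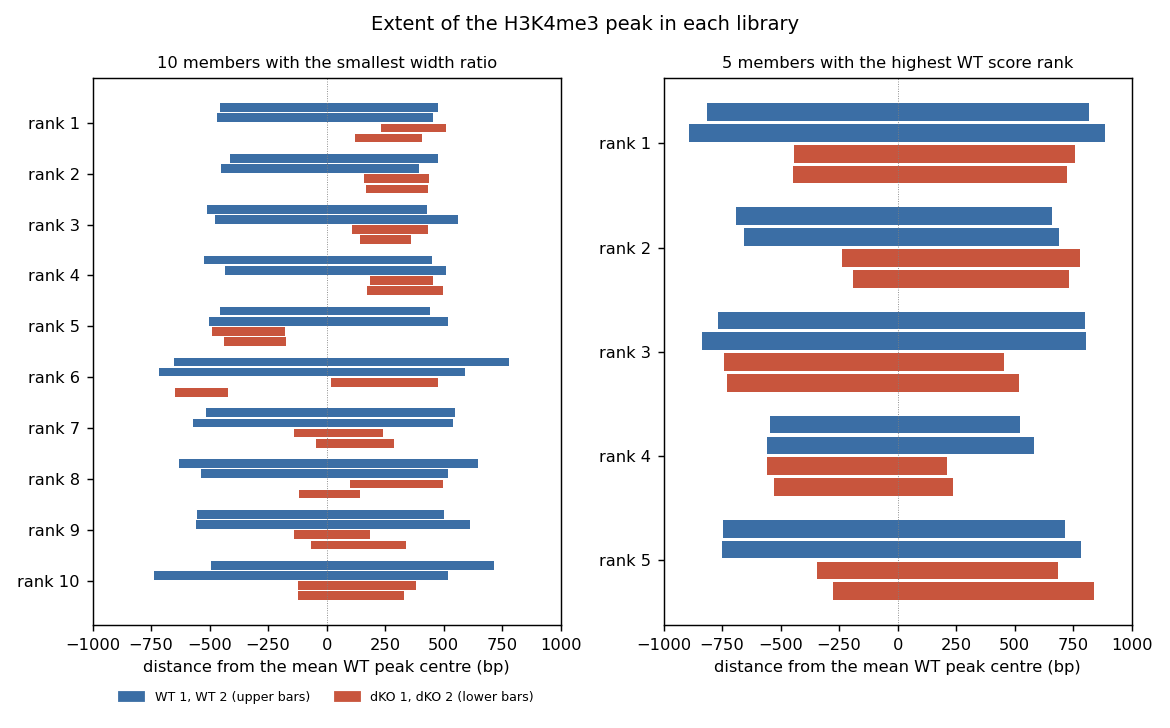
Extent of the peak in each library as distance (bp) from the mean centre of the WT peaks, for the 10 members with the smallest width ratio (left) and the 5 with the highest WT score rank (right); blue bars are WT replicates 1 and 2, red bars dKO replicates 1 and 2, in that order from the top. The red bars of ranks 1 to 5 on the left sit at 1 end of the blue bars, and those of rank 6 at places 442 bp apart.

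In some members the dKO libraries kept different parts of the WT stretch. On chromosome 11 from 44432571 to 44434067 the WT peaks were 1433 and 1307 bp wide. Score percentiles there were 19.2 and 27.6 in WT and only 5.17 and 3.67 in dKO. The dKO replicate 1 peak ran from 44433307 to 44433764 and the dKO replicate 2 peak from 44432638 to 44432864, with 442 bp between them, so that the mean dKO width was 25.0% of WT while 3 bp at the start and 113 bp at the end were lost in common. Such dKO peaks that did not touch each other were found in 5 members, named here after their values were seen: this one, another on chromosome 11 from 75006879 to 75007974, one on chromosome 12 from 118395852 to 118396581 and, on chromosome 13, those from 83853230 to 83853985 and from 96294310 to 96295281. Among the 10302 other eligible regions there was 1. In 412 members (88.2%) the dKO peaks overlapped by at least 80% of the shorter, and the WT peaks did in 456 (97.6%). At the other eligible regions the dKO peaks did so in 10239 (99.4%). The rule makes the dKO peaks shorter, and the same shift of an edge then takes a larger part of the overlap. These shares therefore cannot tell whether position differed more between the dKO than between the WT libraries. The members' edges differed by a median of 57 bp (start) and 61 bp (end) between the dKO replicates. Between the WT replicates it was 62 and 57 bp.

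The largest losses in base pairs came from longer domains, where the rule also asks for a larger loss. The chromosome 9 domain from 58048240 to 58050866 was 2208 and 2517 bp long in the WT libraries and 1068 and 360 bp long in the dKO libraries, and 514 bp at the start and 516 bp at the end were lost in common. The dKO libraries differed there by more than the WT libraries, with means of 2362.5 ± 218 bp (WT) against 714 ± 501 bp (dKO; SD, n = 2 each). The chromosome 8 region from 87459587 to 87461525 had WT widths of 1827 and 1772 bp and dKO widths of 980 and 480 bp. Those of the chromosome 4 region from 126142321 to 126143822 were 1255 and 1481 bp, then 360 and 525 bp. The chromosome 1 domain from 166386261 to 166389175 was the widest member in both WT lists, where it measured 2826 and 2820 bp, against 1980 and 2076 bp in the dKO lists. It averaged 2823 ± 4.24 bp in WT against 2028 ± 67.9 bp in dKO (SD, n = 2 each). With widths scaled to a common library median its log2 ratio went from -0.48 to -0.34, and it no longer met the rule. Its 583 bp lost in common lay all at the start.

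The 5 members with the highest WT scores showed smaller and more even shortening. Their mean WT score percentile ran from 91.8 to 93.9 and their mean dKO percentile from 77.8 to 89.0, all above the medians of the eligible regions. The chromosome 5 region from 74488590 to 74490368 had WT widths of 1632 and 1779 bp and dKO widths of 1204 and 1170 bp. For the chromosome 3 region from 28703896 to 28705365 they were 1350 and 1344 bp, then 1016 and 922 bp, and 417 bp at the start were lost in both dKO libraries while no base pair was lost at the end. The chromosome 17 region from 32500118 to 32501757 measured 1569 and 1640 bp with the WT libraries and 1199 and 1247 bp with the dKO libraries, with 284 bp of the loss at the end. The chromosome 11 region from 20443156 to 20444295 had WT peaks of 1071 and 1140 bp and dKO peaks of 766 and 765 bp, with 287 bp lost at the end and none at the start. That from 51432752 to 51434338 on the same chromosome measured 1462 and 1532 bp, then 1031 and 1114 bp, with the loss at the start. In each of these 5 regions at least 85.9% of the common loss lay on 1 side, and dKO widths were 69.2% to 76.2% of WT. Their log2 ratios, in this order, were -0.52, -0.48, -0.39, -0.53 and -0.48. With widths scaled to a common library median they were -0.39, -0.35, -0.26, -0.40 and -0.35. The chromosome 3 and 17 regions and that from 51432752 then no longer met the rule.

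Members were spread over the genome. Every autosome and chromosome X held some, from 2.19% of the eligible regions on chromosome 14 (8 of 365) to 5.70% on chromosome 19 (20 of 351), and chromosome X held 17 of 322 (5.28%). Another member lay within 100 kb of 60 members (12.8%), and a member lay within 100 kb of 988 other eligible regions (9.59%). There were 28 such groups and the largest had 3 members. The closest pair was on chromosome 3, from 90268903 to 90269785 (WT widths 850 and 822 bp, dKO widths 579 and 470 bp) and, 159 bp on, from 90269945 to 90270510 (546 and 566 bp, then 434 and 241 bp). On chromosome 2 the members from 3335966 to 3336734 and from 3341102 to 3342068 were 4367 bp apart. The first lost 241 bp at its end and the second 231 bp at its start, so that the edges lost were those facing each other. The third pair was on chromosome 13, from 34216966 to 34218017 and from 34225258 to 34226000, where 252 and 147 bp were lost at the start of each.

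Other peaks near the members were about as frequent as elsewhere. Another union region lay within 1000 bp of 122 members (26.1%) and of 24.2% of all eligible regions. It had a peak in all 4 libraries in 78 of the 122 (63.9%) and in WT libraries only in 30 (24.6%). For the 2488 other eligible regions with such a neighbour the shares were 60.8% and 22.4%, close to those of the members. Among members with a 1-sided loss and such a neighbour on 1 side only, the loss was on the neighbour's side in 19 of 79 (24.1%), against 387 of 1023 (37.8%) in eligible regions outside the rule with a lower dKO mean. In both sets the loss thus lay more often on the side away from the neighbour, and by a larger share in the members. The common losses outside the rule were mostly smaller, so the shares are of unlike losses, and no test was run. For the members with a close neighbour the region boundaries matter. With peaks within 1000 bp merged first, the log2 ratio on chromosome 19 from 5488546 went from -1.69 to -0.016 and that on chromosome 12 from 15818465 from -1.72 to -0.19 (neighbours 112 and 446 bp away were then joined to them). It went from -2.0 to -1.01 for the chromosome 11 region from 44432571, from -1.82 to -2.41 for the chromosome 12 region from 50479178 and from -1.60 to -2.40 for the chromosome 2 region from 181498081, whose neighbours lay 183, 259 and 43 bp away. The chromosome 15 region from 79713352 and the chromosome 7 region from 105342143 kept -1.68 and -1.87.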

How the data were processed

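H3K4me3 was measured in 2 WT and 2 dKO libraries; 4 input libraries were not analysed here. The submitters' processing notes name build mm9 and, as tools, MACS2 2.1.1.20160309, bedtools, BWA 0.7.12-r1039, R 2.14.0, SAMtools and Picard 2.6.0; their roles, thresholds and any use of input are not given in the sources used here. The authors deposited 1 peak list per library, with positions and a score of unnamed scale (lowest value 13). Depth is unknown, and a deeper library can give wider peaks. Lists were merged with bedtools 2.31.1 (distance 0) and widths taken with Python 3.11.15, pandas 2.3.3 and numpy 2.4.6; plots used matplotlib 3.10.9. The members and lists were chosen with earlier results of these data known. The limma 3.58.1 fit (R 4.3.3, log2 base pairs under peaks, centred on library medians, variance trend, Benjamini-Hochberg) was tested on simulated data. Scaling divides each width by its library's median over eligible regions and multiplies by the median over all libraries.

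Named regions are the 10 members with the smallest ratio, the 5 with most base pairs lost, the 5 with the highest WT score percentile, 3 on either side of the limit, and the 3 closest groups within 100 kb. No mm9 annotation or sequence was used, so gene lists and motifs that had been set down were not examined. Alternatives were other limits, scaled widths, equal lists, merged peaks, split peaks allowed, autosomes, same-numbered libraries and each library left out.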

Additional observations from a re-analysis of the deposited data

How the results depend on the processing

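The number of members (467) was 167 with a limit of 0.7, 1405 with a limit of 0.9 and 241 with widths scaled by library median. It was 456 with lists of equal length, 650 with peaks within 1000 bp merged first, 660 with any number of peaks per library and 450 on autosomes. Leaving out 1 library gave 893 to 2039 with regions redrawn and 886 to 2013 with the regions of all 4 lists kept (1419 and 913 without WT replicates 1 and 2, 2013 and 886 without dKO replicates 1 and 2), since 3 libraries then had to meet the rule in place of 4. The 6 wider regions became 1 and 51 under limits of 0.7 and 0.9, 26 when scaled, 14 when merged and 10 with any number of peaks. Leaving out 1 library gave 22 to 106 wider regions, and 38, 101, 21 and 100 with all regions kept, in the same order. As a replicate block, with each dKO library against the WT library of the same number, 669 regions were narrower and 14 wider. This is a looser rule that all 467 members meet, so neither count could fall. Deviations of same-numbered libraries from their genotype mean correlated at -0.059 over 14943 regions. With 2 libraries per genotype this cannot tell whether a number marks a shared litter, batch or day, which the labels do not say. The members' median log2 ratio (-0.69) was -0.94 and -0.43 under limits of 0.7 and 0.9 and -0.62 to -0.58 with a library left out. The share lost on 1 side (69.6%) was 75.5% with merged peaks, 81.2% and 58.9% when 1 side meant 70% or 90% of the loss, and 57.8% to 64.2% without 1 library. In the unused pair the median log2 ratio (-0.35) was -0.13 when WT replicate 1 and dKO replicate 2 chose, -0.065 when both replicates 2 chose and -0.15 when scaled. The limma fit called 0 regions narrower, 7 with merged peaks, 0 with the replicate block (783 at an unadjusted p under 0.05) and 0 to 49 with a library left out, the lone library of its genotype being assumed to vary like the remaining pair. The log2 ratios of the named regions ran from -1.89 to -0.23 when scaled and from -2.53 to -0.016 with merged peaks; leaving out a library cannot turn their sign, by the way they were chosen. The cause of these shifts was not tested except where stated. Read depth is unknown, so its effect on the widths could not be measured.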
